A study of Mus musculus with 12 samples.

Results

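The replication-dependent histone genes supply the bulk of the histone protein that packages new DNA in S phase. Here they are the 68 rows of the count table, of 24421 genes in all, whose symbol begins with Hist1h, Hist2h, Hist3h or Hist4h, the older names for the genes of the histone clusters. Counts came from 12 RNA-Seq libraries of mouse embryonic fibroblasts (MEFs), 3 in each of 4 groups. The groups were control cells (Null control), cells lacking TFEB and TFE3 (DKO control), and each of these lines after 8 hours in 100 µM etoposide (Null etoposide, DKO etoposide). The labels call the control genotype Null and the methods of the study call it WT. DKO stands for double knockout, made by CRISPR editing of Tfeb and Tfe3, which encode related transcription factors of lysosomal and stress genes. Each genotype was 1 line of cells immortalized with SV40, and replicates are cultures of that line, so genotype and line cannot be told apart. The labels describe the controls as untreated and the methods describe them as given the solvent DMSO. Etoposide traps topoisomerase II on DNA and causes double-strand breaks, and the design asks how the response of the transcriptome to this damage differs without TFEB and TFE3.

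Histone genes of these clusters have no introns as a rule, lie side by side in the genome, and are transcribed mainly while DNA is copied. Their mRNAs end in a conserved stem-loop in place of a poly(A) tail. The stem-loop is bound by SLBP, cut free with the help of the U7 snRNP, and is also where degradation begins when DNA synthesis stops. A few members can also make polyadenylated mRNA from a site further downstream. Ribosomal RNA was removed and no poly(A) selection was made, so mRNAs without a poly(A) tail were measured.

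The 68 members comprised 6 genes of the linker histone H1, 18 of H2A, 19 of H2B, 12 of H3 and 13 of H4. By cluster, 54 carried the name Hist1, 10 Hist2, 3 Hist3 and 1 Hist4, and they lie on chromosomes 13, 3, 11 and 6 in that order. All 68 symbols were found in GENCODE M21 (GRCm38). The expression filter kept 15220 genes, 59 of them members. The other 9 members had 0 counts in every library in 6 cases, and the rest (Hist1h2ao, Hist1h4m and Hist2h2aa2) had totals of 82, 7 and 7 counts over the 12 libraries. Only pairs with a unique alignment were counted, and these 9 members share between 33.8% (Hist2h3c1) and 100% (Hist2h2aa2) of their 75-base windows with another annotated transcript. Genes that overlap a member were left out of all such window counts. A count of 0 allows up to 3 counts, or between 0.0298 and 0.0607 CPM, counts scaled to library size, across the libraries, for counting error only. For a copy without unique sequence it gives no such limit.

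Of the 68 members, 52 have at least 16 annotated bases after the stop codon, and 46 of these hold an exact stem-loop there, a stem of 6 base pairs around a loop of 4 bases. It begins between 21 and 58 bases after the stop codon, with a median of 31. Another 15 members have too few annotated bases to tell, and 1, the pseudogene Hist3h2bb-ps, has no stop codon in the annotation. No match was found in Hist1h1a, Hist1h2bc, Hist1h2bq, Hist1h2br, Hist2h2be and Hist2h3b. The annotation of Hist2h3b ends 37 bases after the stop codon, too early to hold a stem-loop that begins at the median distance. Of 21884 other protein-coding genes, 672 (3.07%) held such a match anywhere in a transcript. The stem-loops took 8 forms, and 4 of them follow, with the stem-loop in capitals and 5 bases to each side. The sequences are from GENCODE M21 and each is followed in the text by the position of its gene.
Hist1h1e: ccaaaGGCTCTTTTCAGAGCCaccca
Hist1h3c: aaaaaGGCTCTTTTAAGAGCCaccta
Hist1h4d: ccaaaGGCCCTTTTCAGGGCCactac
Hist2h4: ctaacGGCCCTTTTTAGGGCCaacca
The form in Hist1h1e (GRCm38, chr13:23620629-23622558, minus strand) was found in 26 members of H1, H2A, H2B and H3. The form in Hist1h3c (chr13:23744973-23745602, minus strand) was found in 6 members of H1, H2B and H3. The form in Hist1h4d (chr13:23581598-23582735, plus strand) was found in 7 members, all of H4, and that in Hist2h4 (chr3:96261682-96263311, minus strand) in 2, also of H4. The first 2 forms share a stem and differ in the loop, as do the last 2, so that between those shown the stem differs only between H4 and the other families.

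Promoter windows from RefSeq (GRCm38.p6), from 250 bases before to 50 bases after the start, were matched for 61 members. TATAAA was in 30 of them (49.2%) against 8.32% of all 32851 windows. CCAAT, on either strand, was in 52 (85.2%) against 37.4%, namely in every window of an H1, H2A, H2B or H3 member and in 3 of 12 windows of H4 members. ATTTGCAT, the octamer, on either strand, was in 13 (21.3%) against 1.74%, 7 of H2A and 6 of H2B. Windows of H2A and H2B genes that start back to back overlap, so a single CCAAT or octamer site can count for both genes. The octamer in the windows of Hist1h2aa and Hist1h2ba is such a site. The motifs do not overlap in the windows shown. Shown for the H1 member with the most counts, for the member with the most counts of all and for a gene pair that moved in opposite directions are the windows of Hist1h1e, Hist2h2bb and Hist2h2ac, with matches to the 3 motifs in capitals. A match describes letters only, and no binding was measured.
Hist1h1e: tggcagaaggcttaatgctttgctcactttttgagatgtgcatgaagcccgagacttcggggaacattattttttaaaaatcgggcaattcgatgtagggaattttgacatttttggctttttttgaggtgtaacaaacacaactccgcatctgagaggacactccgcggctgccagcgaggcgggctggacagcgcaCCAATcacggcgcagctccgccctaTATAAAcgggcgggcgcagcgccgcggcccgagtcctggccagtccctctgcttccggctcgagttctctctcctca
Hist2h2bb: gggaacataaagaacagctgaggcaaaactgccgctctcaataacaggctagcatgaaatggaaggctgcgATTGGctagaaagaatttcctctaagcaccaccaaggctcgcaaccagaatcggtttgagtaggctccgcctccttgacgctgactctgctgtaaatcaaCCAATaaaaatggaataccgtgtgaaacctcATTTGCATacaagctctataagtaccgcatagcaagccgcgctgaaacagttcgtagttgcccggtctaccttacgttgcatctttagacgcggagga
Hist2h2ac: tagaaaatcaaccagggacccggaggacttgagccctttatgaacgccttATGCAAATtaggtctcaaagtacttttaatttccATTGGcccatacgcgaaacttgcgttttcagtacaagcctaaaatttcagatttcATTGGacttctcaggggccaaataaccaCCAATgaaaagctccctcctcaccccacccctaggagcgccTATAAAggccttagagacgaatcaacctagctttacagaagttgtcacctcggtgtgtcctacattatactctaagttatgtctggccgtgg
These lie at chr13:23622509-23622808 (minus strand), chr3:96269450-96269749 (plus strand) and chr3:96220831-96221130 (minus strand). The window of Hist2h2ac takes in the start of Hist2h2be, which lies 239 bases away on the other strand.

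The edited genes were looked at first. Tfeb was at 38.9, 39.2 and 42.1 CPM in the Null control libraries, 4.602, 6.09 and 4.68 in DKO control, 11.4, 10.2 and 10.4 in Null etoposide and 1.92, 1.61 and 2.204 in DKO etoposide. Every DKO library was below every Null library of the same treatment. Tfe3 was at 115, 109.9 and 114 CPM in Null control, 94.1, 93.05 and 90.95 in DKO control, 68.5, 69.6 and 68.1 in Null etoposide and 70.7, 71.2 and 63.4 in DKO etoposide, so its transcript was still present in the DKO line. In DKO against Null controls, the log2 fold change was -2.94 for Tfeb and -0.29 for Tfe3 (edgeR quasi-likelihood, Benjamini-Hochberg adjusted p = 1.05e-14 and 8.68e-06). The treatment was checked with the p53 targets Cdkn1a, an inhibitor of cyclin-dependent kinases, and Mdm2, the ligase that degrades p53. Cdkn1a was 71.5, 65.6 and 60.1 CPM in Null control and 498, 511 and 509.9 in Null etoposide, and 38.4, 39.8 and 40.7 and then 242, 254 and 227 CPM in the DKO line. All 5 genes of the p53 check list were higher after etoposide in both genotypes.

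The fibroblast label was checked with 10 markers, of which 9 had a mean of at least 1 CPM and Vim had the most counts. Their summed level was 7069, 7064 and 7169.5 CPM in Null control, 11340.5, 11917 and 11383 in DKO control, 4041, 3955 and 3947 in Null etoposide and 5195, 5292 and 4964 in DKO etoposide. It was thus lower after etoposide in both genotypes and higher in DKO than in Null cells. Dcn and Fap, 2 of the defining markers, had low counts, and Thy1 was at 4.497, 4.103 and 4.03 CPM in Null control but 0.0602, 0.0326 and 0.0168 in DKO control. The 6 macrophage markers summed to 1.83, 1.57 and 1.85 CPM in Null control, 2.75, 1.96 and 1.71 in DKO control, 13.2, 13.01 and 14.00 in Null etoposide and 3.95, 3.85 and 4.82 in DKO etoposide. Most of this was Cd68, and Adgre1 and Tyrobp were at 0 in all 6 control libraries. The part of these markers in the results on histone genes was not tested. The libraries held between 45577023 and 104120871 counts on genes.

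Etoposide in Null cells asks what 8 hours of damage do to histone mRNA in the control genotype. Nearly the whole set fell, in all 5 families. The summed level of the 68 members was 17071, 19045 and 18490.0 CPM in the Null control libraries and 6447, 7292 and 7298 CPM after etoposide. Every treated library lay far below every control library. The mean went from 18202 ± 1018 to 7012 ± 489.7 CPM (SD, n = 3), which is 38.5% of control. By family the treated mean was 33.2% of control for H1, 43.2% for H2A, 40.9% for H2B, 36.9% for H3 and 39.8% for H4. In bulk RNA, fewer cells in S phase and less histone RNA per cell cannot be told apart.

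**Figure D1:**
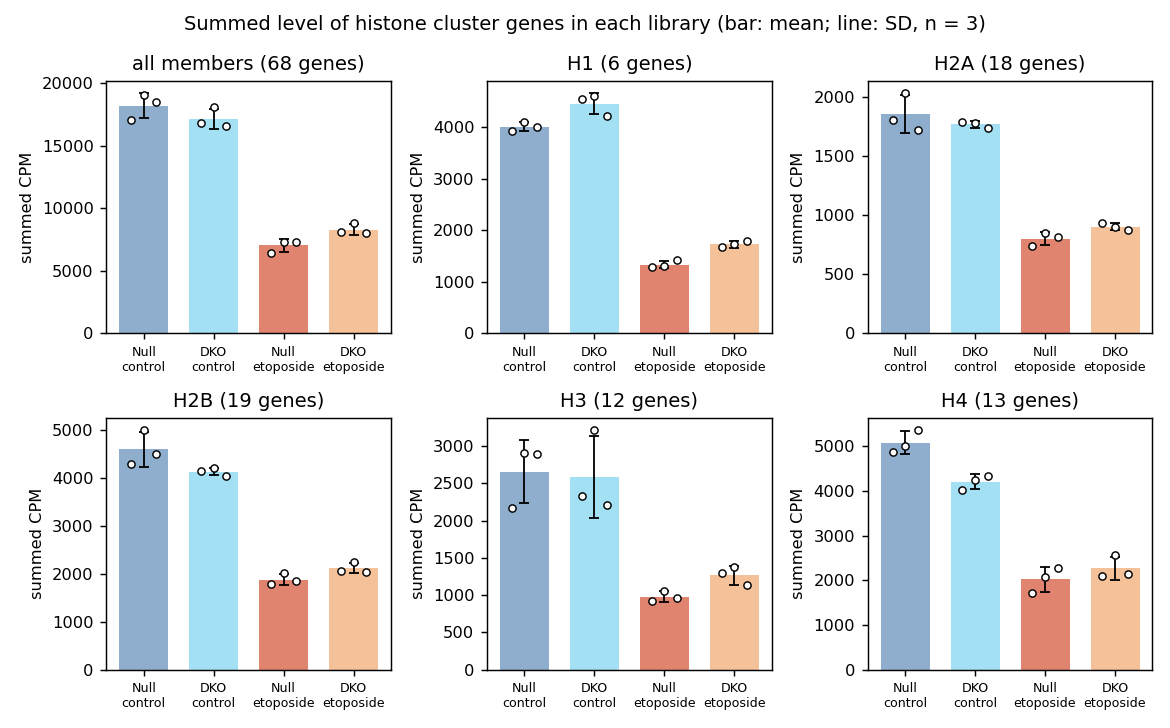
Summed level of the histone cluster genes in CPM, for all members and for each family, in the 12 libraries; bars are group means, lines the SD (n = 3) and points the single libraries. For all members and for each family the etoposide libraries of both genotypes lie below the control libraries, with group means of 18202 and 7012 CPM over all members in Null cells and 17155 and 8283 CPM in DKO cells.

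Of the 59 members tested, 51 fell, 2 rose and 6 did not pass the threshold of 0.05 (edgeR quasi-likelihood, Benjamini-Hochberg adjusted over 15220 genes). Over all genes tested, 37.2% were called lower and 42.3% higher, so the members' 86.4% lower is read against 37.2%. The median log2 fold change was -1.31 over the members and 0.07 over all genes. With library size alone as the scaling, the all-gene median moved by 0.17, 3 members were called higher and 50 lower, and the share called higher among all called genes went from 53.2% to 64.0%. The p-values measure only the spread between these samples, which are cultures of 1 line per genotype.

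**Figure D2:**
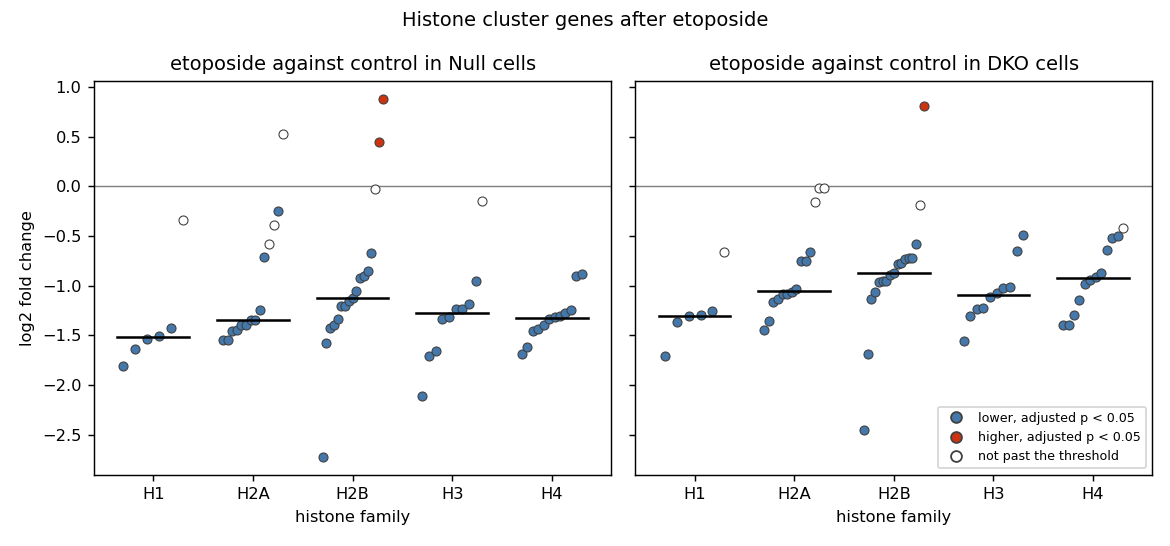
Log2 fold change after etoposide of each of the 59 members tested, by histone family, in Null cells (left) and DKO cells (right); filled points passed the threshold of 0.05 on the adjusted p, and lines are family medians. The 5 family medians lie between -1.52 (H1) and -1.12 (H2B) in Null cells and between -1.30 (H1) and -0.87 (H2B) in DKO cells, and Hist2h2be is the point above 0.8 in both.

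The linker histones H1 bind the DNA between nucleosomes. Hist1h1e was at 984, 1011 and 991 CPM in Null control, 1161, 1197 and 1141 in DKO control, 305, 319.5 and 334 in Null etoposide and 469, 449 and 504 in DKO etoposide. No replicate of any group overlapped another group, DKO libraries being above Null libraries under both treatments. Its log2 fold change after etoposide in Null cells was -1.64 (SE 0.04, edgeR adjusted p = 5.34e-16). Hist1h1a was at 869.6, 913 and 846 CPM in Null control, 843, 823 and 825 in DKO control, 229.5, 253 and 269 in Null etoposide and 246, 252 and 267 in DKO etoposide. Both treated groups lay far below both control groups and overlapped each other. This member, whose annotated transcript holds no stem-loop within 48 bases after the stop codon, fell by 1.81 in Null cells (adjusted p = 9.34e-16). Hist1h1b and Hist1h1c changed by -1.42 and -1.54. The H1 member that did not pass the test, Hist1h1t, is known from testis and was at 0.2703, 0.184 and 0.185 CPM in Null control.

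H2A and H2B pair as dimers in the nucleosome. In Null cells 11 of 14 H2A members and 14 of 17 H2B members fell. Hist1h2ak was at 352, 345 and 341 CPM in Null control, 316, 295 and 279 in DKO control, 126, 143 and 125 in Null etoposide and 131, 135 and 133 in DKO etoposide. Treated libraries lay below all controls, and the DKO controls lay below the Null controls. Hist1h2ab, Hist1h2ac and Hist2h2ac changed by -1.45, -1.34 and -1.55 in Null cells, beside -1.40 for Hist1h2ak. The H2B gene Hist2h2bb was at 1486, 1528 and 1444 CPM in Null control, 1385, 1390.2 and 1336 in DKO control, 606, 663 and 667 in Null etoposide and 698, 697 and 729.6 in DKO etoposide. All 4 groups were apart from each other. Its log2 fold change in Null cells was -1.20 (SE 0.04, edgeR adjusted p = 1.18e-14). None of its 75-base windows occurs in an annotated transcript of a gene that does not overlap it.

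The largest fall among the members in Null cells was that of the H2B gene Hist1h2bl, which was also among the most uneven between replicates. It was at 310.1, 751 and 508 CPM in Null control, 262, 303 and 144 in DKO control, 36.6, 149 and 51.1 in Null etoposide and 38.3, 41.6 and 48.8 in DKO etoposide. Replicate 2 was the highest in both Null groups, and treated and control libraries of the same genotype did not overlap. The log2 fold change was -2.72 (SE 0.41, edgeR adjusted p = 1.01e-05) and became -3.58 without replicate 2 of Null etoposide. Of the 75-base windows of Hist1h2bl, 73.3% occur in another transcript.

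H3 and H4 form the central tetramer of the nucleosome. In Null cells 9 of 10 H3 members and all 12 H4 members tested fell. Hist1h3c was at 172, 198 and 283 CPM in Null control, 151, 229 and 205 in DKO control, 69.2, 57.2 and 73.5 in Null etoposide and 117, 145 and 155 in DKO etoposide. The Null etoposide libraries were the lowest, and the DKO etoposide libraries lay between them and the controls, with some overlap with DKO control. Hist1h3c fell by 1.71 in Null cells (SE 0.17, edgeR adjusted p = 4.33e-08), Hist1h3b by 1.19 and Hist1h3i by 2.10. The exception was Hist2h3b, at 80.7, 63.6 and 72.2 CPM in Null control and 116, 51.2 and 27.2 in Null etoposide, where the groups overlapped.

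Among the H4 genes, Hist2h4 was at 599, 592 and 576 CPM in Null control, 451, 449 and 403 in DKO control, 168, 187 and 194 in Null etoposide and 167, 161 and 167 in DKO etoposide. Under each treatment the DKO libraries were below the Null libraries, after etoposide by a small margin. Its log2 fold change in Null cells was -1.69 (SE 0.05, edgeR adjusted p = 3.09e-15). Hist1h4d was at 971, 935 and 991 CPM in Null control, 729.6, 726 and 757 in DKO control, 291, 452 and 405 in Null etoposide and 434, 363 and 382 in DKO etoposide. The control groups were apart and the treated groups overlapped. Hist1h4d fell by 1.33 and Hist1h4j by 1.61 in Null cells. Hist4h4, alone on chromosome 6, was at 368, 363 and 367 CPM in Null control, 358, 351 and 307 in DKO control, 185, 194 and 216 in Null etoposide and 228, 237 and 245 in DKO etoposide. It fell less, by 0.88 (edgeR adjusted p = 1.33e-10), the smallest fall among the H4 members in Null cells.

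**Figure D3:**
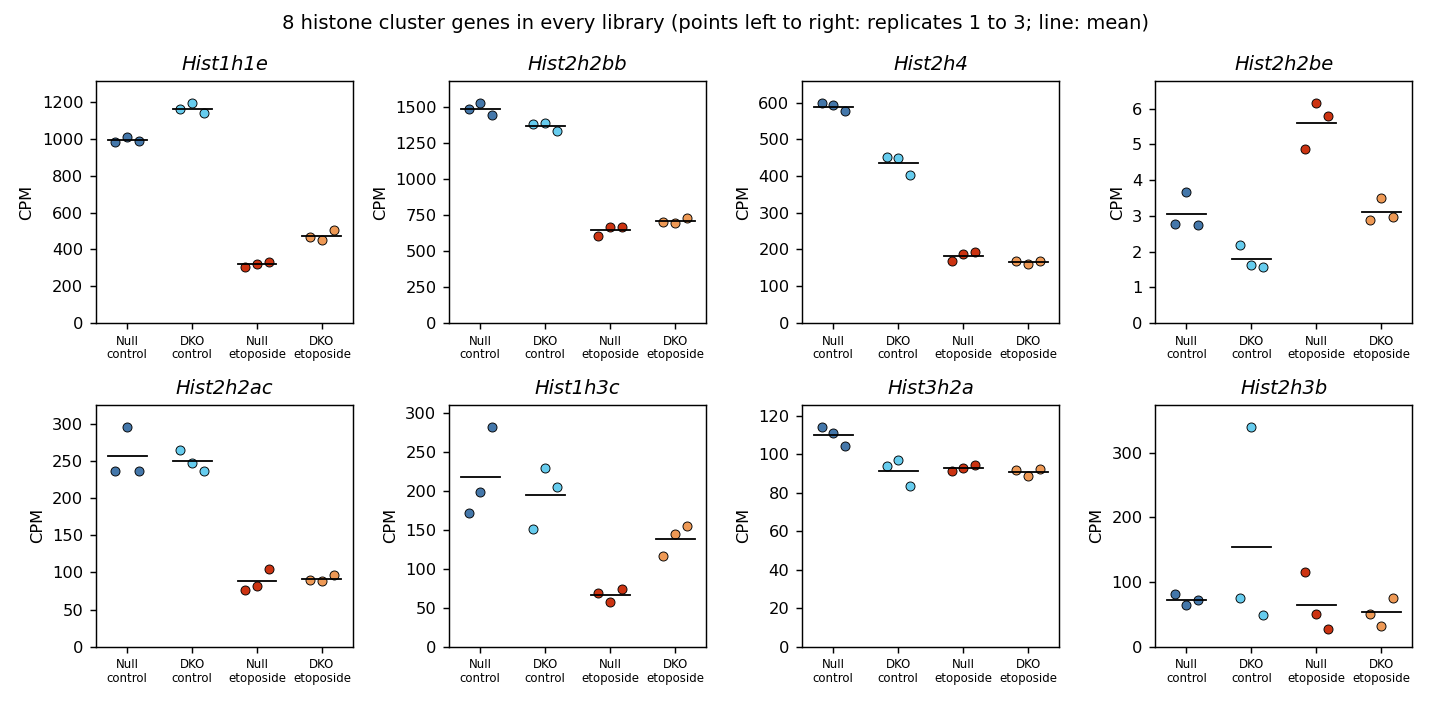
Level in CPM of 8 histone cluster genes in each of the 12 libraries; points are replicates 1 to 3 from left to right in each group, lines are group means, and each panel has its own axis from 0. Hist2h2be is the one of the 8 with treated libraries above the controls of the same genotype, Hist3h2a stays near 90 CPM in 3 of the groups, and replicate 2 of DKO control stands apart for Hist2h3b at 340 CPM.

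The 2 members that rose in Null cells belong to the Hist2 and Hist3 clusters. The H2B gene Hist2h2be is listed as making polyadenylated mRNA, from knowledge of the mouse gene or its human counterpart. It was at 2.78, 3.66 and 2.75 CPM in Null control, 2.18, 1.63 and 1.58 in DKO control, 4.88, 6.16 and 5.804 in Null etoposide and 2.87, 3.51 and 2.97 in DKO etoposide. Treated libraries were above the controls of the same genotype in all 6 cases, and DKO libraries below Null libraries of the same treatment. It rose by 0.88 in Null cells (SE 0.14, edgeR adjusted p = 1.75e-05) and by 0.81 in DKO cells (SE 0.17, adjusted p = 0.000463). The annotated transcript runs 2192 bases past the stop codon and holds no stem-loop. The pseudogene Hist3h2bb-ps was at 2.46, 2.34 and 2.86 CPM in Null control, 1.47, 1.31 and 1.64 in DKO control, 2.99, 3.76 and 3.704 in Null etoposide and 1.23, 1.41 and 1.201 in DKO etoposide. It was higher after etoposide in Null cells (0.45, adjusted p = 0.00549), and in DKO cells the value was -0.19 with overlapping groups. That rise was no longer called without replicate 2 of all 4 groups (0.33).

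Hist3h2a, an H2A gene on chromosome 11, showed the smallest fall called in Null cells. It was at 114, 111 and 104 CPM in Null control, 93.9, 97.1 and 83.5 in DKO control, 91.3, 92.7 and 94.6 in Null etoposide and 91.8, 88.6 and 92.3 in DKO etoposide. The Null controls were the highest and the other 3 groups overlapped. Its log2 fold change was -0.24 in Null cells (edgeR adjusted p = 0.000219) and -0.01 in DKO cells (adjusted p = 0.848), and with library size alone it was -0.08, not called, and 0.26, called higher. Unlike Hist2h2be it holds a stem-loop, of the form shown for Hist1h1e. Its neighbour Hist3h2ba was at 0.197, 0.461 and 0.216 CPM in Null control and 0.0405, 0.0546 and 0.0199 in DKO etoposide, so its changes rest on few counts. Hist3h2ba was called lower after etoposide in DKO cells (-1.69, edgeR adjusted p = 0.048), a call kept in 7 of 21 alternatives.

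Over the 39 tested members with a stem-loop, 36 fell in Null cells, none rose and 3 were not called by edgeR, with a median of -1.30. Another 7 tested members are listed as making polyadenylated mRNA, from knowledge of the mouse genes or their human counterparts. Of these, 6 fell and 1, Hist2h2be, rose, with a median of -1.15. The shares lower were 92.3% with a stem-loop and 85.7% on the polyadenylated list, which share members, beside 86.4% of all members and 37.2% of all genes. Hist1h2bc, one of those 7 and without a stem-loop in its annotated transcript, fell by 1.15. Whether polyadenylated and stem-loop forms of a gene changed alike was not tested, since the counts do not tell them apart.

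Etoposide in DKO cells asks the same of cells without TFEB and TFE3. The set fell again. Its summed level was 16841, 18062 and 16562 CPM in the DKO control libraries and 8059.9, 8800.4 and 7989 CPM after etoposide, without overlap. The mean went from 17155 ± 798 to 8283 ± 449 CPM (SD, n = 3), which is 48.3% of control, and by family 38.7% for H1, 50.99% for H2A, 51.3% for H2B, 48.99% for H3 and 53.9% for H4. Of the 59 members, 52 fell, 1 rose and 6 were not called (edgeR, Benjamini-Hochberg adjusted). Over all genes 31.5% were called lower and 43.7% higher. The median was -0.99 over the members and 0.14 over all genes. With library size alone the all-gene median moved by 0.27, the members split into 2 higher and 44 lower, and the share called higher among all called genes went from 58.1% to 75.6%.

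The main members of each family fell in DKO cells as well. Hist1h1e changed by -1.30 (SE 0.04, edgeR adjusted p = 1.54e-14), Hist1h1a by -1.70, Hist2h2bb by -0.95, Hist1h4d by -0.91 and Hist2h4 by -1.40. Hist1h3c changed by -0.49 (adjusted p = 0.0116), a call lost with library size alone (-0.22), with limma-trend (-0.48), without replicate 2 of DKO control (-0.39) or replicate 1 of DKO etoposide (-0.40). The H3 gene Hist2h3b was at 75.4, 340.0 and 48.3 CPM in DKO control and 50.7, 32.5 and 75.03 in DKO etoposide, so that 1 control library was far above the rest. Its log2 fold change of -1.55 (adjusted p = 0.0188) became -0.25 without replicate 2 of DKO control and 0.03, reversed, without replicate 2 of all groups, and without replicate 2 of DKO etoposide it was -1.31 and not called. DESeq2, limma-trend and the replicate block (-1.30) did not call it. Hist1h3a changed by -0.65 with overlapping groups, and its call was lost with DESeq2 (-0.65), limma-trend (-0.64) and library size alone (-0.37), and without replicate 2 of DKO control (-0.27) or replicate 3 of DKO etoposide (-0.38).

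The comparison of DKO with Null controls asks what the loss of TFEB and TFE3 does to histone mRNA in undamaged cells. Differences went both ways. The summed level of all members in DKO control was 94.2% of that in Null control, and the libraries of the 2 groups overlapped. H1 was at 111%, H2B at 89.9% and H4 at 82.8%, each without overlap. H1 summed to 3930.2, 4100.5 and 4006 CPM in Null and 4550.0, 4605 and 4227 in DKO control, H2B to 4285, 5007 and 4501 and 4150.0, 4206 and 4046 CPM, and H4 to 4874, 4996 and 5368 and 4023, 4253 and 4340.5 CPM. H2A (95.4%) and H3 (97.3%) overlapped. These sums depend on the scaling. By library size alone all members summed to 16545, 18320.0 and 17881 CPM in Null and 14965, 15963 and 14791 in DKO control, 86.7% and without overlap, while H1 was at 102% with overlap. H2A (87.7%), H2B (82.7%) and H4 (76.2%) were then lower without overlap. Of the 59 members, 6 were higher and 18 lower in DKO control (10.2% and 30.5%), beside 33.3% and 33.4% of all genes, so fewer members than genes at large were called higher and about as many lower. The median was -0.12 over the members and -0.02 over all genes. With library size alone the all-gene median moved by -0.12, 4 members were higher and 27 lower, the members' share higher among those called went from 25% to 12.9%, and that of all genes from 49.9% to 38.4%.

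Among the H1 genes, Hist1h1b was at 565, 576 and 553 CPM in Null control and 727, 728 and 685 in DKO control, without overlap. It was higher in DKO control by 0.34 (SE 0.04, edgeR adjusted p = 2.25e-07), and Hist1h1e by 0.23 (adjusted p = 0.0001002). Of the H3 genes, Hist1h3b was higher, at 112, 144 and 136 CPM in Null control and 189, 183 and 164 in DKO control (0.46, adjusted p = 0.000128). Of the 12 H4 genes 5 were lower and none higher, among them Hist2h4 (-0.44, adjusted p = 3.70e-07), Hist1h4d (-0.39, adjusted p = 0.00319) and Hist1h4j (-0.29, adjusted p = 0.00349). All 3 tested members of the Hist3 cluster were lower, Hist3h2a by 0.26 and Hist3h2bb-ps by 0.80 (adjusted p = 0.000132 and 0.000288). Hist3h2ba (-1.24) lost its call with DESeq2 (-1.32), without replicate 2 of Null control (-0.77) or replicate 3 of DKO control (-0.96). Hist2h2be was also lower (-0.77, adjusted p = 0.000848). The H2B genes Hist1h2bl and Hist1h2bn were lower by 1.14 and 0.82 (adjusted p = 0.0147 and 0.00827), without overlap of the groups. The call of Hist1h2bl was lost with DESeq2 (-1.15) and limma-trend (-1.13), and without replicate 2 of Null control (-0.79) or replicate 3 of DKO control (-0.89). That of Hist1h2bn was lost with limma-trend (-0.81) and without replicate 2 of all groups (-0.53). Chosen after their values were seen, the H2A genes Hist1h2ad and Hist1h2ai were called with overlapping groups. Hist1h2ad was at 169, 63.7 and 86.1 CPM in Null control and 225, 166 and 222 in DKO control (0.94, adjusted p = 0.009295), the largest rise called. Hist1h2ai was at 163, 436 and 152 and 128, 160.3 and 118 CPM (-0.89, adjusted p = 0.0428), with replicate 2 of Null control high. Hist1h2bj, at 0.01 and not called, was -0.36 and called lower without replicate 3 of DKO control.

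After etoposide, DKO cells held somewhat more histone mRNA than Null cells. The summed level was 6447, 7292 and 7298 CPM in Null etoposide and 8059.9, 8800.4 and 7989 in DKO etoposide, 118% of Null and without overlap. H1 was at 130%, H2A at 113%, H2B at 113% and H3 at 129%, each without overlap, while H4 (112%) overlapped. The Hist2 cluster, at 104%, overlapped as well. By library size alone all members were at 117% without overlap, and H2B and H4 overlapped. Of the 59 members, 21 were higher and 5 lower in DKO etoposide (35.6% and 8.47%), beside 37.5% and 36.6% of all genes. The share higher is near that of all genes, while fewer members than genes at large were lower. The median was 0.20 over the members and 0.00 over all genes. DESeq2 called 11 members higher and 5 lower, and the stricter filter 13 higher and 3 lower.

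Of the 6 H1 genes 4 were higher, with Hist1h1e at 0.57 (SE 0.04, edgeR adjusted p = 1.16e-09), Hist1h1c at 0.52 and Hist1h1b at 0.45. Hist1h3c showed the largest difference, 1.07 (SE 0.17, adjusted p = 1.60e-05), among members called higher. Hist1h3b was higher by 0.57, Hist1h4j by 0.34, Hist4h4 by 0.26 and Hist1h2bb by 0.34 (adjusted p = 1.38e-05, 0.000996, 0.0005595 and 9.07e-06). Hist2h2be (-0.84) and Hist3h2bb-ps (-1.44) were lower, as was Hist3h2ba (-2.90), which had only a few counts a library in DKO etoposide. Hist2h4 was lower by 0.15, a call lost without replicate 3 of Null etoposide (-0.10).

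Whether etoposide changed the members differently in the 2 genotypes was tested by the interaction, the change in DKO minus the change in Null cells. For 21 members it was positive, meaning for all of them except Hist3h2a a smaller fall in DKO cells, and for 1, Hist3h2bb-ps, negative, with 37 not called. These are 35.6% and 1.69% of the members, beside 29.6% and 24.4% of all genes. The share of positive members is thus not far above that of all genes, and the share of negative ones is far below it. The median was 0.27 over the members and 0.05 over all genes. Scaling by library size alone moved the all-gene median by 0.10, 26 members were positive and 0 negative, and the positive share of all called genes went from 54.8% to 65.2%. DESeq2 called 13 positive and 1 negative. The 5 comparisons share libraries, so their values stand side by side and do not support each other.

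Hist1h3c had the largest interaction among the members called, 1.22 (SE 0.23, edgeR adjusted p = 0.0002204), from -1.71 in Null and -0.49 in DKO cells. For Hist1h4j it was 0.63 (adjusted p = 0.000128), from -1.61 and -0.99. Hist1h2bk gave 0.46, Hist4h4 0.37, Hist1h1e 0.34, Hist1h2ac 0.31, Hist2h4 0.29 and Hist2h2bb 0.25 (adjusted p = 0.00486, 0.000831, 9.44e-05, 0.00329, 0.00186 and 0.000936). All 8 of these calls held in each of the 22 alternatives tried. Hist3h2a gave 0.23, called lower in Null cells and not called in DKO cells, where library size alone gave 0.26. For Hist1h1a (0.11) and Hist1h1b (0.12), which fell in both genotypes, no difference was called, and Hist2h2be, which rose in both, gave -0.07 (adjusted p = 0.816). Both were called with library size alone (0.21 and 0.22), and Hist1h1b with limma-trend (0.12, adjusted p = 0.0499). Calls also appeared when single libraries were left out, for Hist1h1a without replicate 3 of Null etoposide (0.16) and for Hist1h1b without replicate 3 of Null control (0.14), replicate 3 of Null etoposide (0.13) or replicate 2 of DKO etoposide (0.13). Other named members gained calls in the same way. Positive calls came for Hist1h2bl (1.12), Hist1h2bn (1.01), Hist1h3a (0.98 or 0.86), Hist1h4h (0.93) and Hist1h2bj (0.51). Negative calls came for Hist3h2ba (-2.12) without replicate 2 of Null control and Hist2h3b (-1.82) without replicate 3 of DKO control.

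Replicates differed more for histone genes than for most genes. Of 56 members with a mean of at least 1 CPM, 19 (33.9%) had a ratio above 2 between the highest and lowest replicate of some group, against 673 of 11999 genes at that level (5.61%). Copies that share sequence were more often uneven. Of 19 members with more than 50% of 75-base windows in another transcript, 11 had such a ratio, and of 37 with fewer shared windows, 8 had. Over the 56 members, Pearson's r between the percent of shared windows and the log2 of the largest ratio was 0.63 and Spearman's rho 0.65. This is a description across genes from the same libraries, and genes are not independent replicates.

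The libraries behind the largest ratio differed by gene. Replicate 2 of DKO etoposide was the one apart for 7 of the 19 members, replicate 3 of Null etoposide for 4 and replicate 2 of Null etoposide for 3. Singled out after their values were seen, Hist1h2af was at 24.3, 117 and 24.8 CPM in DKO etoposide and Hist1h4i at 57.8, 156 and 70.4, with replicate 2 high in both. Hist1h2ah, at 96.01, 18.1 and 74.9 CPM in DKO etoposide, was low in the same library. Hist1h2ai, at 163, 436 and 152 CPM in Null control and 51.7, 164 and 69.3 in Null etoposide, was high in replicate 2 of both groups, as was Hist1h3h at 146, 525 and 229 and 50.5, 182 and 52.4 CPM. Among the 40 tested members with at most 50% shared windows, 35 fell and 2 rose in Null cells, and 34 fell and 1 rose in DKO cells. Of the 21 members with a positive interaction 19 were in this group (47.5% of the 40), and 2 were among the 19 members that share more (10.5%), beside 29.6% of all genes. The median interaction was 0.28 in the first group and 0.16 in the second. Members that share more also had the more uneven replicates, and the part of this in the calls was not tested.

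**Figure D4:**
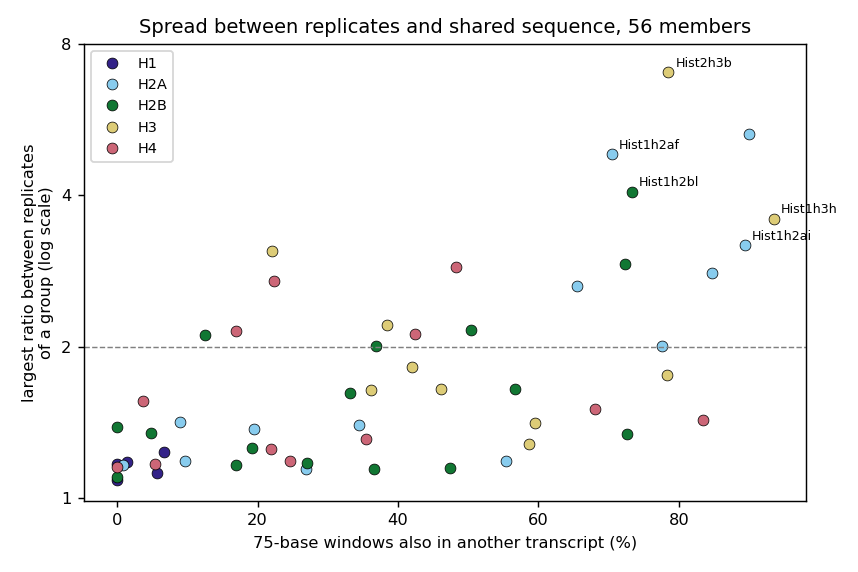
Largest ratio between replicates of a group (log scale) against the percent of 75-base windows shared with genes that do not overlap the member. Shown are 56 members with a mean of at least 1 CPM, coloured by family, and the dashed line marks a ratio of 2. Of the 19 members above the line, 11 have more than 50% of windows shared, and Hist2h3b is the highest at 7.03.

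H2A and H2B genes often start back to back from a common promoter region. In the annotation 13 such pairs lie with starts between 173 and 306 bases apart on opposite strands, and both genes were tested in 11. After etoposide both genes fell in 7 pairs in Null cells and in 8 in DKO cells. Of all members tested, 86.4% fell in Null and 88.1% in DKO cells, beside 37.2% and 31.5% of all genes. With so many members lower, these pair counts do not show that the genes of a pair moved together. Opposite calls were made for 2 pairs in Null cells, Hist2h2ac with Hist2h2be and Hist3h2a with Hist3h2bb-ps. In DKO cells only the first of these was called in opposite directions, where Hist2h2ac changed by -1.45 and Hist2h2be by 0.81. Hist2h2ac was at 237, 297 and 237 CPM in Null control and 76.6, 81.9 and 105 in Null etoposide, and the treated libraries lay below the controls.

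Per kilobase of annotated exon, Hist2h2bb was the highest member, at 3899.9 ± 110.3 CPM per kilobase in Null control and 1694 ± 90.3 in Null etoposide (SD, n = 3). By the mean over the 12 libraries Hist1h4k, Hist1h4h and Hist1h3i followed, at 1410.5 ± 308, 1399 ± 317 and 1459.8 ± 261 CPM per kilobase in Null control, which differ by less than their spread. Hist1h1a was at 1182 ± 45.9, Hist1h1e at 516 ± 7.08 and Hist3h2a at 51.2 ± 2.44 CPM per kilobase. Hist2h2be was at 1.17 ± 0.197. These levels depend on the exon length in GENCODE M21, which may not be the annotation used for counting. By coding length the order differs, with Hist1h4d next after Hist2h2bb (2006 CPM per kilobase of coding sequence over the 12 libraries, 545 per kilobase of exon), then Hist1h4h (1370.0) and Hist1h1e (1125), and with Hist1h4k (911) and Hist1h3i (862) further down. For Hist1h1e the exon length (1930 bases) includes sequence past the stem-loop.

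Lists of other genes are read beside all genes, of which 42.3% were called higher and 37.2% lower in Null cells and 43.7% and 31.5% in DKO cells. Of 28 tested genes of histone mRNA processing and transcription, 11 rose and 11 fell in Null cells (39.3% and 39.3%, near the shares of all genes; median 0.00), and 19 rose and 3 fell in DKO cells (67.9% and 10.7%; median 0.15). Slbp, which encodes the stem-loop binding protein, was at 149, 146 and 145 CPM in Null control, 156, 147 and 153 in DKO control, 221, 221 and 227 in Null etoposide and 259, 261 and 279.8 in DKO etoposide. Treated libraries were all above the controls. It rose by 0.60 in Null and 0.81 in DKO cells (edgeR adjusted p = 3.45e-11 and 8.83e-13), with a called difference of 0.21 between them. Lsm11, a protein of the U7 snRNP, fell by 0.55 and 0.60, and Zfp473, which works with it in 3' end processing, rose by 1.42 and 1.08. Npat, the coactivator that cyclin E and CDK2 act on at histone genes, was at 0.02 in Null cells and not called, and was called higher with library size alone (0.19) and with the stricter filter (0.11). In DKO cells its rise of 0.13 was lost without replicate 1 (0.09) or 2 (0.09) of DKO control. Zcchc6, a uridylyltransferase of histone mRNA decay, rose by 0.49 in Null cells and was at -0.07, not called, in DKO cells, where library size alone gave 0.20, called higher. Casp8ap2, known to act in histone gene transcription, fell by 0.21 in DKO cells, against 0.06 with library size alone.

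Replacement variants are encoded outside the clusters, mostly by genes with polyadenylated mRNA, though H2afx is known to make a stem-loop mRNA as well, and the counts do not tell its forms apart. Of 11 tested, 2 rose and 5 fell in Null cells (18.2% and 45.5%), and 5 rose and 5 fell in DKO cells (45.5% and 45.5%). H2afx, the variant phosphorylated at double-strand breaks, was at 509, 529.6 and 546 CPM in Null control, 543, 566 and 487 in DKO control, 396, 395 and 408 in Null etoposide and 668, 676 and 675 in DKO etoposide. The controls overlapped, Null etoposide was below them and DKO etoposide above. It fell by 0.40 in Null and rose by 0.34 in DKO cells, with an interaction of 0.74 (edgeR adjusted p = 2.09e-08). The linker variant H1f0 was at 603, 569 and 549 CPM in Null control, 802, 797 and 774 in DKO control, 250.4, 264 and 283 in Null etoposide and 666, 645 and 690.0 in DKO etoposide. It fell by 1.11 in Null cells and by 0.25 in DKO cells, where library size alone gave 0.03, and its interaction was 0.86 (adjusted p = 2.97e-09). The H3.3 gene H3f3b rose by 0.22 and 0.25 (adjusted p = 8.14e-05 and 2.28e-05). H3f3a, the other H3.3 gene, was at 0.00, not called, in Null and -0.21 in DKO cells, the latter 0.06 with library size alone.

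Histone chaperones carry new histones to DNA. Of 17 tested, 3 rose and 10 fell in Null cells (17.6% and 58.8%), and 8 rose and 4 fell in DKO cells (47.1% and 23.5%). Asf1b rose by 0.49 and 0.55 and Chaf1b, a subunit of CAF-1, by 0.35 and 0.16. Nasp, a chaperone of H3 and H4, was at -0.20 in Null cells, a fall not called with library size alone (-0.04), and rose by 0.19 in DKO cells.

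As a list, genes of DNA synthesis did not fall with the histone genes. Of 40 S-phase genes, 22 rose and 11 fell in Null cells (55.0% and 27.5%; median 0.13), and 26 rose and 7 fell in DKO cells (65.0% and 17.5%; median 0.28). Pcna, the sliding clamp, was at 517, 499.7 and 511 CPM in Null control, 586, 556 and 585 in DKO control, 746, 689 and 740.2 in Null etoposide and 878, 872 and 926 in DKO etoposide. All 4 groups were apart, with the treated ones higher. Rrm2, the small subunit of ribonucleotide reductase, rose by 1.38 in Null and 0.60 in DKO cells, and the loading factor Cdc6 by 0.70 and 0.70. The lowest value in the list was -1.07 in Null and -0.64 in DKO cells. The cyclins Ccne1 and Ccne2 were counted above, with histone mRNA processing and transcription. They rose by 1.46 and 1.79 in Null and 0.99 and 1.39 in DKO cells. Mcm2, of the replicative helicase, fell by 0.10 in Null cells, a call lost with DESeq2 size factors (-0.06) and the stricter filter (-0.02) and reversed with library size alone (0.06). Of 15 mitosis genes, 11 fell and 1 rose in Null cells (73.3% and 6.67%; median -0.67), and 12 fell and none rose in DKO cells (80.0% lower; median -0.73). No share of cells in S phase was measured.

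**Figure D5:**
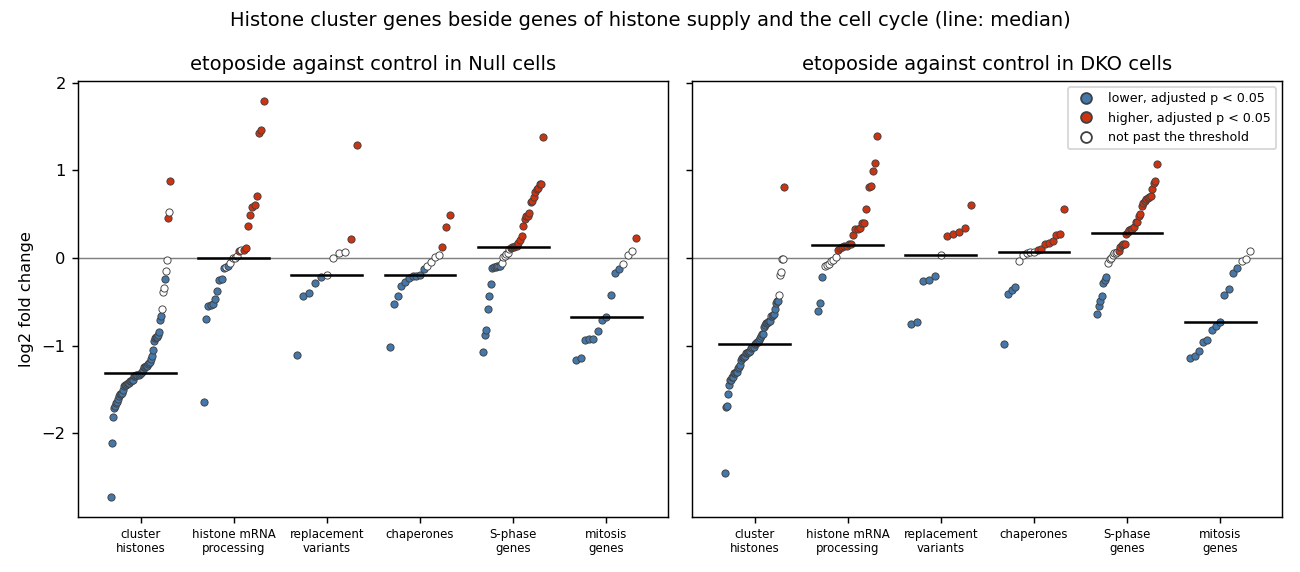
Log2 fold change after etoposide of the 59 histone cluster genes and of the tested genes of 5 other lists, in Null cells (left) and DKO cells (right); filled points passed the threshold of 0.05 on the adjusted p, and lines are medians. The cluster genes have the lowest medians, -1.31 and -0.99, beside 0.13 and 0.28 for S-phase genes and -0.67 and -0.73 for mitosis genes.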

How the data were processed

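Total RNA of 12 MEF cultures was sequenced by the authors as 75-base pairs after ribosomal RNA was removed. According to the methods, reads were checked with FastQC and trimmed if needed (Cutadapt), then aligned by HISAT2 (the labels give the build, mm10), and they kept unique alignments and counted with HTSeq. The labels also name featureCounts. The deposited values are raw counts per gene symbol. The 5 summary lines held 36.9 to 46.6% of each library's counts and were left out. Their share was higher after etoposide without overlap, 41.1 to 44.02% in Null control against 45.03 to 46.6% in Null etoposide, and 36.9 to 39.2% in DKO control against 40.9 to 42.4% in DKO etoposide. Pairs outside annotated genes made up 22.5 to 24.2%, 25.1 to 27.3%, 20.2 to 21.1% and 21.2 to 22.3% in that order, and pairs without a unique alignment 18.1 to 19.3%, 18.3 to 20.5%, 15.9 to 17.7% and 18.6 to 19.9%. The part of these shares in the results was not tested.

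Members were found by symbol. Counts were fitted in R 4.3.3 with edgeR 4.0.16: filterByExpr with the 4 groups, TMM scaling, glmQLFit with group as the only term, and glmQLFTest, with Benjamini-Hochberg adjustment over 15220 genes and a threshold of 0.05. The standard error is the log2 fold change divided by the root of its F statistic, and CPM are relative to the TMM-scaled library size. "Higher", "lower", "rose" and "fell" refer to calls. Group sums, spreads and sequence matches were not tested. Sharing of sequence was counted as the 75-base windows of a member's transcripts found in a transcript of another gene of GENCODE M21. Genes that overlap the member were left out, and M21 may differ from the annotation the counts were made with.

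Named genes followed a rule: the 3 most abundant members of each family, the 3 largest rises and falls in each of the 5 comparisons among called members averaging 1 CPM or more whose groups do not overlap (overlap was not asked for the interaction), all tested members of Hist2, Hist3 and Hist4, members known to be polyadenylated, the edited genes, Cdkn1a and Mdm2, and listed context genes, 59 genes in all. Hist1h1t, Hist1h2aa, Hist1h2ad, Hist1h2ba, Hist1h2af, Hist1h2ah, Hist1h2ai, Hist1h3h, Hist1h4i, Hist1h4k and Thy1 were named after their values were seen. Members and lists were chosen with earlier results of these data known. The polyadenylated members were listed from knowledge of the mouse genes or their human counterparts.

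Alternatives were DESeq2 1.42.0, limma-trend (limma 3.58.1, robust), DESeq2 size factors, library size alone, no filter, a mean of at least 1 CPM, thinning to the smallest library, a replicate block, only the libraries compared, and each library left out. A legacy quasi-likelihood fit, replicate 2 left out of all groups and members with at most 50% shared windows were added after seeing the data. The code was tested on simulated data.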

Additional observations from a re-analysis of the deposited data

Results flagged for a closer look

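For 34 of the 59 named genes, the change after etoposide differed between the 2 genotypes by the interaction test (edgeR, adjusted p below the threshold). Of the 32 named members, 18 were among these. Over all genes, 8226 of 15220 were called by the same test, 29.6% positive and 24.4% negative. A call alone therefore does not set the named genes apart. Hist1h3c, Hist1h3i, Hist1h4j and Hist3h2bb-ps were also named for the size of their interaction, which favours a higher count. Values are the log2 change in DKO minus that in Null cells.

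Among H1 members it was 0.28 for Hist1h1c and 0.34 for Hist1h1e. H2A members gave 0.31 for Hist1h2ac, 0.24 for Hist1h2ak, 0.60 for Hist2h2ab and 0.23 for Hist3h2a, the last with a direction in DKO cells that depends on the scaling. H2B members gave 0.20 for Hist1h2bb, 0.26 for Hist1h2bc, 0.33 for Hist1h2be, 0.46 for Hist1h2bk, 0.25 for Hist2h2bb and -0.64 for the pseudogene Hist3h2bb-ps. H3 members gave 1.22 for Hist1h3c and 0.80 for Hist1h3i, and H4 members 0.43 for Hist1h4d, 0.63 for Hist1h4j, 0.29 for Hist2h4 and 0.37 for Hist4h4.

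Of these 18, the calls of 8 were lost when a single library was left out. Hist1h1c was not called without replicate 3 of Null control (0.24), replicate 3 of DKO control (0.19), replicate 1 of Null etoposide (0.26), replicate 2 of Null etoposide (0.24) or replicate 2 of DKO etoposide (0.20). The call of Hist1h2bb ended without replicate 2 of Null control (0.18), replicate 3 of DKO control (0.17), replicate 1 of Null etoposide (0.14) or replicate 3 of DKO etoposide (0.16). That of Hist1h2bc ended without replicate 2 of Null control (0.19), replicate 1 of DKO control (0.24), replicate 3 of DKO control (0.21), replicate 1 of Null etoposide (0.18), replicate 1 of DKO etoposide (0.22) or replicate 2 of DKO etoposide (0.23). Hist1h2be depended on replicate 1 of DKO etoposide (0.26), and Hist2h2ab on replicate 1 of Null etoposide (0.49) and replicate 3 of DKO etoposide (0.43). Hist1h3i was not called without replicate 3 of Null control (0.65), replicate 1 of DKO control (0.64), replicate 3 of DKO control (0.68), replicate 2 of Null etoposide (0.69) or replicate 2 of DKO etoposide (0.55), and Hist1h4d without replicate 1 of DKO control (0.40), replicate 2 of DKO control (0.40) or replicate 1 of DKO etoposide (0.33). For Hist3h2bb-ps the call ended without replicate 1 of Null control (-0.61), replicate 2 of Null control (-0.58), replicate 3 of DKO control (-0.56), replicate 2 of Null etoposide (-0.58) or replicate 3 of DKO etoposide (-0.58).

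The tool, scaling or filter also ended calls among these 8. DESeq2 and limma-trend did not call Hist1h1c (0.21 and 0.28), Hist1h2bc (0.19 and 0.26), Hist1h2be (0.26 and 0.32), Hist1h3i (0.74 and 0.81) and Hist1h4d (0.37 and 0.45), and DESeq2 did not call Hist1h2bb (0.14). With DESeq2 size factors the calls of Hist1h1c (0.21), Hist1h2bb (0.14), Hist1h2bc (0.19) and Hist1h2be (0.26) ended, and with the stricter filter those of Hist1h1c (0.23), Hist1h2bb (0.15) and Hist1h2bc (0.21). Hist1h2bc was not called after thinning (0.23), nor Hist3h2bb-ps with library size alone (-0.54). Without replicate 2 of all groups the calls of Hist1h1c (0.23), Hist1h2bb (0.23), Hist2h2ab (0.51) and Hist3h2bb-ps (-0.70) ended.

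Outside the clusters the difference was 0.86 for H1f0, 0.74 for H2afx, 0.51 for H2afz, -0.21 for H3f3a, 0.40 for Nasp, -0.19 for Chaf1b, 0.21 for Slbp and -0.56 for Zcchc6. It was 0.16 for Mcm2, -0.78 for Rrm2, -0.47 for Ccne1 and -0.40 for Ccne2. The p53 targets Cdkn1a and Mdm2 gave -0.34 and -1.48. The edited genes gave 0.49 for Tfeb, lost without replicate 1 of DKO control (0.40) or replicate 3 of DKO etoposide (0.32), or after thinning (0.39), and 0.28 for Tfe3. With library size alone H3f3a (-0.10) and Chaf1b (-0.08) were not called, and without replicate 2 of all groups H3f3a (-0.17), Chaf1b (-0.15) and Mcm2 (0.15) were not called. Mcm2 was also not called with DESeq2 size factors (0.10). The causes were not tested.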

How the results depend on the processing

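After etoposide the median over the members was negative in both genotypes under every scaling, filter and tool tried. In Null cells 53 members were called, with 53 to 55 when 1 library was left out, and in DKO cells 53 (48 to 53), or 45 with DESeq2, 44 with limma-trend and 46 with library size alone. Counting only members with at most 50% shared windows gave 35 in DKO cells. Between controls 24 were called (17 to 26), with 18 by limma-trend, 31 by library size alone and 33 when only the libraries compared were fitted. After etoposide 26 differed by genotype (21 to 33), with 16 by DESeq2, 16 under the stricter filter and 32 without a filter. For the interaction it was 22 (17 to 29), with 14 by DESeq2 and 26 by library size alone. The replicate block gave 54, 52, 26, 28 and 22. The cause was not tested.

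Summed levels without Hist2h2bb were by construction lower, 16715.9 CPM in Null control, 15784.7 in DKO control, 6366.9 in Null etoposide and 7574.96 in DKO etoposide. With library size alone the sums over all members were 17582.1 CPM in Null control, 15239.5 in DKO control, 7607.71 in Null etoposide and 8894.02 in DKO etoposide, 43.3% of control after etoposide in Null and 58.4% in DKO cells. Under TMM scaling, leaving out 1 library gave sums over all members of 17780.4 to 18767.3 CPM in Null control, 16701.5 to 17451.9 in DKO control, 6869.3 to 7294.86 in Null etoposide and 8024.52 to 8430.17 in DKO etoposide.

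With library size alone directions reversed in Null cells for Mcm2 (0.0645), in DKO cells for Hist3h2a (0.263), Casp8ap2 (0.0582), Zcchc6 (0.202), H3f3a (0.0646) and H1f0 (0.0273), and between controls for H2afx (-0.111) and Mcm2 (-0.0383). Hist2h3b in DKO cells reversed to 0.027 without replicate 2 of all groups. Hist1h2bj between controls was -0.361 without replicate 3 of DKO control and 0.2286 without replicate 2. Of the named members called, 28 of 30 kept direction and call in all alternatives in Null cells, 25 of 30 in DKO cells, 11 of 19 between controls, 12 of 18 after etoposide and 10 of 18 for the interaction.

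The counts of replicates differed with a chi-square per degree of freedom of 10.8 to 22.6, where counting error alone gives about 1. Libraries of the same number had correlations of -0.03 to 0.04 over all genes, and a library was most like the one of its own number in 19 of 36 cases, where 12 are expected by chance. The cases share correlations and are not independent. Over the members, Null control and Null etoposide libraries of the same number had correlations of 0.29 to 0.52 and those of different numbers -0.46 to -0.03. Deviations from a group mean cancel within the group, so positive values for the same number bring negative ones for different numbers. The members are not independent of each other either, so these values cannot tell whether the numbers pair the Null libraries. In the DKO line the same number gave -0.35 to -0.04. The labels name no shared batch, and the block was kept as an alternative. The counts cannot separate copies that share sequence, or polyadenylated from stem-loop mRNA.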

Other observations

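The edited genes changed with etoposide too. Tfeb fell by 1.91 and Tfe3 by 0.72 in Null cells (edgeR adjusted p = 4.83e-13 and 3.39e-11). The motif CACGTG, a sequence known to bind TFEB and TFE3, was chosen for a search after the other motifs. It was in 0 of the 61 promoter windows of members and in 7.15% of all 32851 windows, and no match says only that these letters are not in those windows.

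In Null cells the cluster medians after etoposide were -1.33 for 49 tested Hist1 members, -1.27 for 6 of Hist2 and -0.03 for 3 of Hist3, and in DKO cells -1.01, -1.17 and -0.19. The Hist3 cluster summed to 117, 114 and 107 CPM in Null control and 94.6, 96.8 and 98.6 in Null etoposide, nearly all of it Hist3h2a.

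Of members known mainly from testis, 3 were tested. Hist1h2aa was at 0.332, 0.323 and 0.541 CPM in Null control and 0.5003, 0.521 and 0.6999 in Null etoposide, and Hist1h1t was at 0 in 1 library of each etoposide group. Hist1h2ba fell in both genotypes, with medians over the 3 of -0.34 in Null and -0.66 in DKO cells.

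Among markers of other cell types, the 5 epithelial ones summed to 2.68, 2.26 and 2.87 CPM in Null control and 2.99, 3.33 and 3.54 in Null etoposide, and to 5.099, 5.04 and 5.92 in DKO control and 2.39, 1.99 and 2.04 in DKO etoposide. The 4 endothelial ones summed to 0.221, 0.0615 and 0.108 CPM in Null control and 2.89, 2.55 and 2.19 in Null etoposide, and 0.211, 0.0543 and 0.134 and 1.52, 0.888 and 0.894 in the DKO groups. The 4 neural ones, chiefly Map2 and Tubb3, summed to 104, 106 and 107 CPM in Null control, 111, 105 and 109 in DKO control, 98.9, 95.1 and 99.9 in Null etoposide and 71.2, 73.4 and 76.1 in DKO etoposide. The 3 skeletal muscle ones, mainly Acta1, summed to 0.762, 1.01 and 1.28 CPM in Null control and 3.58, 4.11 and 3.49 in DKO control, and to 0.696, 0.775 and 1.12 and 2.27, 1.52 and 2.19 after etoposide. The 5 p53 targets had medians of 3.92 in Null and 2.44 in DKO cells after etoposide.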
